A study of Mus musculus with 4 samples.

Results

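The Wnt pathway genes examined here were 48 mouse genes that encode Wnt ligands, their receptors, the R-spondin arm and the transcription factors at the end of the pathway. They comprised 19 ligands, 15 receptors and co-receptors, 9 genes of the R-spondin arm and 5 genes grouped as nuclear factors. Members were chosen by name, from a gene list, and accessible regions were given to a gene by position in build mm10. A region belonged to the protein-coding RefSeq gene that the middle of its best window lay in, or otherwise to the nearest such gene within 100 kb. This gave 454 member regions of 110110 regions in all, and each of the 48 genes had at least 1 region among 17672 genes with a region.

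Open chromatin was read by ATAC-seq, where a transposase cuts and tags DNA that it can reach, in fibroblastic reticular cells, the scaffold-forming fibroblasts of lymph nodes. The Notch2_cKO group carried Ccl19-Cre and floxed Notch2 (Notch2 fl/fl), so that Notch2 is deleted in cells with a history of Ccl19-Cre activity, and had 2 libraries. The control group was Notch2 fl/fl without Cre, also with 2 libraries, so loss of Notch2 and presence of the Cre transgene cannot be told apart. All mice were labelled as female and 12 weeks old, and each library was made from 50000 BP3-high, podoplanin-positive, CD31-negative, CD45-negative cells sorted from the pooled peripheral lymph nodes of 6 mice. Because each library is a bulk pool, a change in the share of cells with an open region and a change within each cell cannot be told apart.

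Wnts are lipid-modified secreted glycoproteins that bind Frizzled receptors. With the co-receptors Lrp5 or Lrp6 they stabilise beta-catenin, which acts in the nucleus with TCF and LEF factors, whereas Ror and Ryk receptors carry beta-catenin-independent signals such as those of Wnt5a and Wnt5b. R-spondins bind Lgr receptors and the ubiquitin ligases Znrf3 and Rnf43, which otherwise remove Frizzled from the cell surface, and so raise the response to Wnt. In fibroblasts of many organs the pathway is known for its part in proliferation and matrix production.

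The best windows of all regions summed to 30260067 and 12340742 counts in the Notch2_cKO libraries, against 23629588 and 25740366 counts in the control libraries. Control 2 stood apart in 1 respect: it held 221 counts at Ddx3y and 201 at Eif2s3y, which lie on the Y chromosome, although its mice are labelled as female, and control 1 and both Notch2_cKO libraries held 0 at both. Counts of member regions, summed genes and starts, named calls and the totals over all regions are therefore given also without control 2. The markers and the further pathway genes were read with all libraries only. Notch2 itself, the targeted gene, had 220 and 215 CPM summed over its 17 regions in Notch2_cKO libraries, against 189 and 200 CPM in controls (log2 change 0.16, SE 0.06, edgeR adjusted p = 0.0659). CPM are counts scaled to a common library size after a loess correction between libraries, and accessibility of the locus does not show whether the floxed part was removed. Of 13 reticular fibroblast markers, 11 had a region, and the ends of Bst1, which encodes BP3, and of Pdpn were open. Summed over the 10 with an open gene end, these markers held 242 and 236 CPM in Notch2_cKO libraries and 231 and 242 CPM in controls. All 8 endothelial markers had a region. Pecam1, Cdh5, Lyve1 and Emcn had none within 1000 bp of either gene end. Their most accessible regions elsewhere held 22.1, 23.1, 1.57 and 10.1 CPM on average. The other 4 had an open gene end. The 4 held 55.9 and 57.4 CPM in Notch2_cKO libraries and 47.1 and 44.2 CPM in controls. Of this, Tek held 23.7 and 26.3 CPM in Notch2_cKO libraries and 15.7 and 14 CPM in controls, and the other 3 held 32.2 and 31.1 CPM in Notch2_cKO libraries and 31.4 and 30.2 CPM in controls. Of the 7 mural markers, the 6 with an open gene end held 82.6 and 81.5 CPM in Notch2_cKO libraries and 104 and 104 CPM in controls. Leukocyte markers, 5 of 8 with a region and 1 (Spi1) with an open gene end, held 18.6 and 17.0 CPM in Notch2_cKO libraries and 16.7 and 16.0 CPM in controls. Epithelial markers, 4 of 4 with a region and 1 (Epcam) with an open gene end, held 5.93 and 4.01 CPM in Notch2_cKO libraries and 5.08 and 5.42 CPM in controls. The part of these other cell types in the results below was not tested.

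When counts were summed by gene, the calls at 2 genes held in every refit tried, and they ran in opposite directions. Accessibility around Ror2, a receptor for Wnt5a, was higher in Notch2_cKO cells, and accessibility around Rspo2, an R-spondin, was lower. Among all 454 member regions, 71 were called higher in Notch2_cKO cells (15.6%), beside 12.4% of all regions, and 38 were called lower (8.37%), beside 11.3% of all regions. A region was called when its edgeR quasi-likelihood p, adjusted over all regions, was under 0.05. Without control 2 the counts were 39 higher and 23 lower, and over all regions the counts without it were 8856 higher and 8225 lower. DESeq2 called 40 member regions higher and 10 lower. Without control 1, 8035 of all regions were called lower. Among all 17672 genes with a region, 9339 had no called region and 2232 held both higher and lower ones. Member genes had more regions, with a median of 7.5 against 3. The called member regions lay at 35 of the 48 genes, with 15 genes holding both higher and lower regions. The other 13 genes held 52 regions, of which 7 had an unadjusted edgeR p under 0.05 and DESeq2 called 0. Both Notch2_cKO libraries lay above both controls at 166 member regions (36.6%), beside 30% of all regions, and below both at 108 (23.8%), beside 29.8%. The median log2 change was 0.08 over member regions and 0.01 over all regions. Without Ror2 the other 47 genes had 59 higher and 37 lower regions of 424, or 13.9% and 8.73%. Whether the members' shares differ from those of all regions was not tested.

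**Figure D1:**
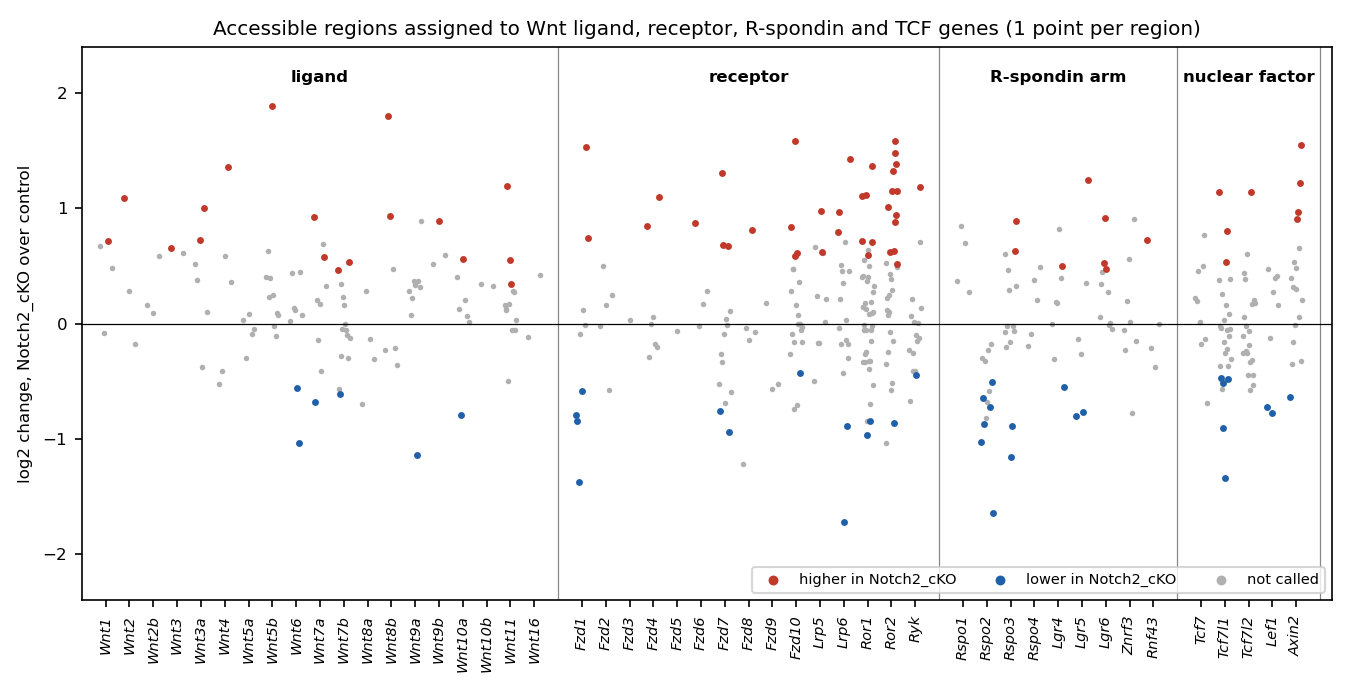
Each point is 1 accessible region, plotted by the gene it was assigned to (horizontal axis, grouped by role) and by its log2 change in accessibility, Notch2_cKO over control (vertical axis). Red points were called higher in Notch2_cKO (71), blue points were called lower (38) and grey points were not called. Ror2 has 12 red points and 1 blue one, and the 13 points of Rspo2 all lie below 0.

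By role, the shares of regions called higher were close between receptors and ligands once Ror2 was set aside. Of 186 receptor regions 37 were higher (19.9%) and 13 lower (6.99%), and of 115 ligand regions 18 were higher (15.7%) and 6 lower (5.22%). Without Ror2, 25 of 156 receptor regions were higher (16.0%) and 12 lower (7.69%). Without Notch2_cKO 2, 36 receptor and 24 ligand regions were called higher, which put the ligands above the receptors as a share. The R-spondin arm had 8 higher (11.1%) and 11 lower (15.3%) of 72 regions, and the nuclear factors had 8 higher and 8 lower of 81 (9.88% each). Median centring scales each library by the median, over regions, of its log count less the mean log count of the region. With it the R-spondin arm had 11 higher and 10 lower. The median log2 change was 0.17 at ligands, 0.05 at receptors, -0.01 in the R-spondin arm and -0.01 at nuclear factors. Without control 2 the higher counts were 24 at receptors, 5 at ligands and 3 in the R-spondin arm, and the lower counts were 8 at receptors and 3 at nuclear factors. Without control 1 the ligands had 8 higher and the nuclear factors 5 lower regions, and without Notch2_cKO 1 the ligands had 7 higher and the R-spondin arm 7 lower.

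**Figure D2:**
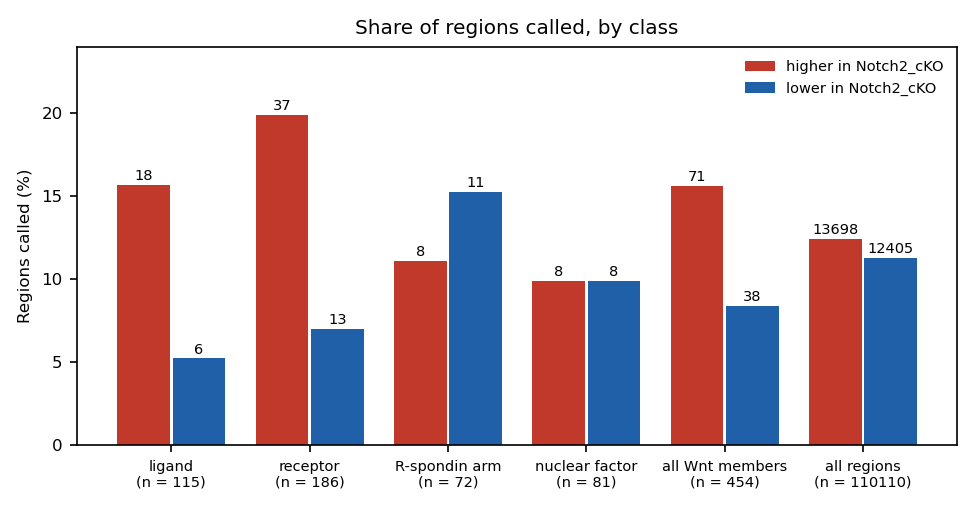
Bars give the percentage of regions called higher (red) and lower (blue) in Notch2_cKO, by class of gene, with the number of regions under each class and the number called above each bar. Receptors reach 19.9% higher and 6.99% lower, against 12.4% and 11.3% of all regions.

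Of the 19 ligand genes, 12 had a region called higher and 5 had one called lower. Over all 17672 genes with a region, whatever their number of regions, 5607 had one called higher and 4958 one called lower. The strongest ligand change lay at Wnt5b, which signals mainly without beta-catenin. Its region at chr6:119467301-119467850 lay 289 bp upstream of a RefSeq start within the gene, and had 4.07 and 4.38 CPM in Notch2_cKO libraries, against 1.15 and 1.12 CPM in controls (log2 change 1.88, SE 0.24, edgeR adjusted p = 8.84e-06). Both Notch2_cKO libraries were above both controls by more than the spread within either pair. At another Wnt5b start, chr6:119448901-119449500, the values were 5.38 and 5.86 CPM in Notch2_cKO libraries, against 4.68 and 4.79 CPM in controls, apart but not past the test. At chr6:119544051-119544600 they were 6.16 and 4.24 CPM in Notch2_cKO libraries, against 4.63 and 5.58 CPM in controls, and overlapped.

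Other ligand regions were called higher farther from a start. Wnt8b had its lowest-p region at chr19:44462001-44462600, outside the gene, with a log2 change of 1.80 (SE 0.30). That region was among the lowest 25% of all regions by level. At Wnt4, which is known from kidney and gonad development, the region was inside the gene (log2 change 1.36, SE 0.26), and at Wnt11, which acts mainly without beta-catenin, it was outside (1.20, SE 0.26). At Wnt2 the change was 1.09 inside the gene, at Wnt9b 0.89, at Wnt3a, a standard activator of beta-catenin, 0.72, and at Wnt3 0.66. Smaller changes were called at Wnt7a (0.58), Wnt10a (0.56) and Wnt7b (0.47). The start of Wnt1, the founding member of the family, changed by 0.72 on the log2 scale, with 3.91 and 2.38 CPM in Notch2_cKO libraries, against 1.94 and 2.12 CPM in controls. Each of these is the higher region of smallest p of its gene, and calls at other regions of the gene are not followed here. Those at Wnt4, Wnt5b, Wnt8b and Wnt11 were kept without each library in turn. Without control 2 the calls at Wnt1, Wnt2, Wnt3, Wnt3a, Wnt7a, Wnt7b, Wnt9b and Wnt10a were lost, with log2 changes of 0.46 to 0.83. Without Notch2_cKO 1 the calls at Wnt1, Wnt2, Wnt3, Wnt3a, Wnt7a, Wnt9b and Wnt10a were lost, with changes of 0.22 to 0.70. Without control 1 those at Wnt1, Wnt3, Wnt7a, Wnt7b and Wnt10a were lost, with changes of 0.48 to 0.65. Under DESeq2 the higher calls at Wnt1, Wnt3, Wnt3a, Wnt7a, Wnt9b and Wnt10a were lost, with adjusted p from 0.0574 to 0.254.

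Ligand regions called lower were fewer. At Wnt7a the region at chr6:91347601-91348200, outside the gene, had 9.97 and 9.58 CPM in Notch2_cKO libraries, against 16.1 and 15.3 CPM in controls (log2 change -0.68, SE 0.14, edgeR adjusted p = 0.00149). The groups did not overlap, and the call was kept without each library in turn. The other lowest-p calls were at Wnt9a (-1.14), Wnt10a (-0.79), Wnt7b (-0.61) and Wnt6 (-0.56). The Wnt9a region was among the lowest 25% of all regions by level. Without control 2 the call at Wnt6 was lost (-0.55), and without control 1 those at Wnt7b (-0.48) and Wnt9a (-0.88) were lost. Wnt9a also lost its call without Notch2_cKO 2 (-0.91), while without Notch2_cKO 1 the changes at Wnt9a and Wnt10a were -2.00 and -1.26. Under DESeq2 the lower calls at Wnt7b, Wnt9a and Wnt10a were lost, with adjusted p from 0.0628 to 0.194. No region was called at Wnt2b, Wnt5a, Wnt8a, Wnt10b and Wnt16, which had 3, 5, 4, 2 and 2 regions. At Wnt5a, a ligand of Ror2, the 5 regions changed by between -0.30 and 0.08 on the log2 scale, and summed over them the gene had 81.0 ± 0.42 CPM in Notch2_cKO libraries and 81.5 ± 4.38 CPM in controls (SD, n = 2 each). The most accessible region assigned to a ligand, by the level of its 300 bp window, was chr15:85634351-85635050. It lay outside Wnt7b, its nearest gene, which spans chr15:85535437-85581821. The region had 81.5 and 72.3 CPM in Notch2_cKO libraries, against 74.3 and 80.6 CPM in controls, and the groups overlapped.

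Ror2 held the most called regions of any member. Ror2 is a receptor tyrosine kinase-like protein that carries Wnt5a signals. Of its 30 regions, 12 were higher, 1 was lower and 17 were not called, and both Notch2_cKO libraries lay above both controls at 17 regions and below them at 3. Its lowest-p region, chr13:53261251-53261850, lay inside the gene, 24524 bp downstream of the start, and had 11.7 and 12.1 CPM in Notch2_cKO libraries, against 4.93 and 3.63 CPM in controls (log2 change 1.48, SE 0.17, edgeR adjusted p = 4.8e-06). At chr13:53217501-53218150, also inside the gene and 68324 bp from the start, the values were 22.3 and 20.8 CPM in Notch2_cKO libraries, against 10.1 and 9.39 CPM in controls (log2 change 1.15, SE 0.14, edgeR adjusted p = 6.02e-06). In both regions the Notch2_cKO libraries stood more than 2-fold above the mean of the controls, and the 4 libraries fell into separate pairs. The widest change among called Ror2 regions was 1.58 at chr13:53266551-53267050, with 1.90 and 2.21 CPM in Notch2_cKO libraries and 0.597 and 0.735 CPM in controls.

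The Ror2 start itself changed less. The region at chr13:53285851-53286450, 76 bp upstream of the start, had 24.4 and 18.9 CPM in Notch2_cKO libraries, against 15.9 and 14.7 CPM in controls (log2 change 0.52, SE 0.14, edgeR adjusted p = 0.0102). The groups did not overlap, but the call was lost without control 2 (log2 change 0.46) and without Notch2_cKO 1 (0.31). The 1 lower region, chr13:53248701-53249200, had 0.929 and 1.22 CPM in Notch2_cKO libraries, against 1.97 and 1.79 CPM in controls (log2 change -0.87), and its call was lost without control 1 (-0.76), control 2 (-0.89) or Notch2_cKO 1 (-0.64). The number of higher Ror2 regions was 12 with all libraries and 8 without control 2. Regions of other genes within 250 kb of Ror2 had a median log2 change of 0.13 over 30 regions, so the neighbourhood as measured moved less than the gene's own regions, whose median was 0.41.

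**Figure D3:**
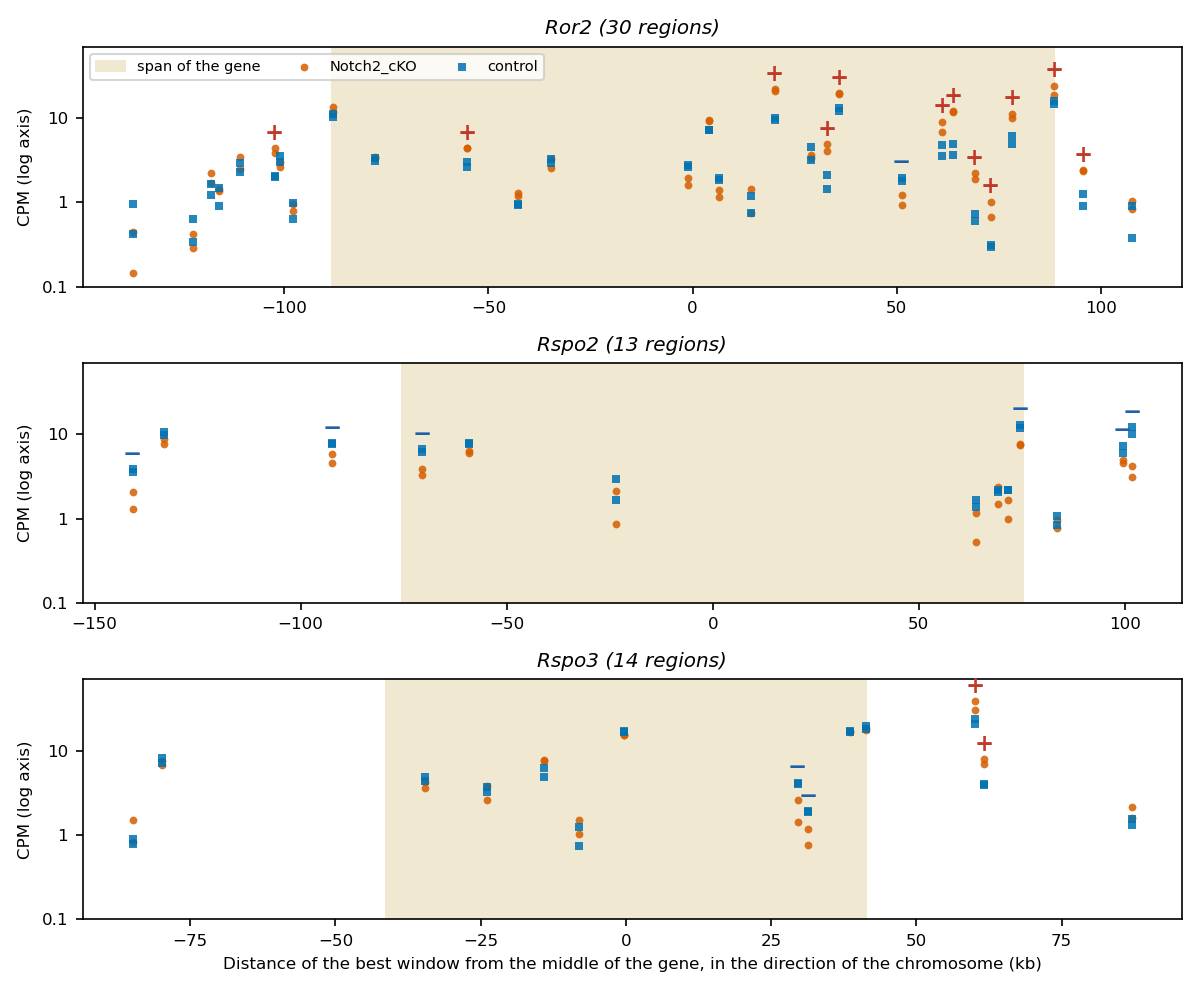
Each panel shows the regions assigned to 1 gene: the horizontal axis is the distance of the best window from the middle of the gene in kb, along the chromosome, and the vertical axis is CPM on a log scale. Orange circles are the 2 Notch2_cKO libraries, blue squares the 2 controls, the shaded band the span of the gene, plus signs regions called higher and minus signs regions called lower. The called Ror2 regions lie mostly to the right of the middle, on the side of the start, while the 6 called Rspo2 regions lie on both sides of that gene and Rspo3 has 2 of each sign.

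The other Wnt receptors that act without beta-catenin were mixed. Ror1, the closest relative of Ror2, had 41 regions, of which 6 were higher and 2 lower. At chr4:100188051-100188700, inside Ror1, the values were 11 and 9.31 CPM in Notch2_cKO libraries, against 4.97 and 4.54 CPM in controls (log2 change 1.11, SE 0.17, edgeR adjusted p = 6.83e-05). A lower region in the same gene, chr4:100307201-100307850, had 5.44 and 5.67 CPM in Notch2_cKO libraries, against 8.83 and 11 CPM in controls (log2 change -0.84, SE 0.17, edgeR adjusted p = 0.00107). Neither pair of groups overlapped, so regions of 1 gene moved both ways. The Ror1 start had 21.4 and 23.6 CPM in Notch2_cKO libraries, against 23.4 and 21.9 CPM in controls, which overlapped. Ryk had 16 regions with 1 higher (log2 change 1.18) and 1 lower (-0.45), and the lower call was lost without control 1 (-0.53), control 2 (-0.38) or Notch2_cKO 1 (-0.25).

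Frizzled genes had 13 higher (18.3%) and 7 lower (9.86%) of 71 regions, beside 12.4% and 11.3% of all regions. At Fzd10, which had 22 regions, the region at chr5:128556101-128556700, 44706 bp from the gene, had 15.6 and 15.1 CPM in Notch2_cKO libraries, against 6.78 and 3.55 CPM in controls (log2 change 1.58, SE 0.20, edgeR adjusted p = 1.35e-05). The controls differed from each other here, and both lay below both Notch2_cKO libraries. The call at the lower Fzd10 region (-0.43) was lost without control 1 (-0.43), control 2 (-0.46) or Notch2_cKO 1 (-0.34). Fzd1 had 2 higher and 4 lower of 9 regions, led by log2 changes of 1.53 and -1.38, and Fzd7 had 3 higher and 2 lower of 14, led by 1.31 and -0.76. These 4 calls were kept without each library in turn, but under DESeq2 the leading lower calls at Fzd1 (adjusted p = 0.0555) and Fzd7 (adjusted p = 0.0874) were lost. The leading lower Fzd1 region was among the lowest 25% of all regions by level. DESeq2 also lost the leading calls at Fzd4, Fzd6 and Fzd8 and the lower ones at Fzd10, Ror2 and Ryk, with adjusted p up to 0.319. At Fzd6 the change was 0.87, at Fzd4 0.85 and at Fzd8 0.81. The Fzd6 call was lost without control 2 (0.49) and stood at 1.33 without control 1. The leading calls at Fzd4 and Fzd8 were lost without control 1 (0.71 and 0.68) or without Notch2_cKO 2 (0.58 and 0.59). No region was called at Fzd2, Fzd3, Fzd5 and Fzd9, which had 5, 1, 1 and 3 regions.

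A start region could be placed at 5 of the 10 Frizzled genes, Fzd1, Fzd5, Fzd7, Fzd9 and Fzd10. None of these passed the test with the loess scaling. At Frizzled genes with no start in the RefSeq promoter table, no region could be placed at one. The Fzd1 start, the most accessible receptor region, had 86.9 and 87.3 CPM in Notch2_cKO libraries, against 86.1 and 89.7 CPM in controls. The Fzd5 start had 80.3 and 69.1 CPM in Notch2_cKO libraries, against 79.3 and 77.8 CPM in controls, and the Fzd7 start had 65.6 and 66.4 CPM in Notch2_cKO libraries, against 63.9 and 64.6 CPM in controls. Of these 3 starts only that of Fzd7 kept the groups apart. The Fzd10 start had 38.8 and 35.6 CPM in Notch2_cKO libraries, against 38.1 and 36.4 CPM in controls, and the Fzd9 start 8.52 and 6.59 CPM in Notch2_cKO libraries, against 6.17 and 7.42 CPM in controls. Both pairs overlapped. With TMM factors, which scale each library by 1 number, in place of the loess scaling, edgeR called the starts of Fzd1 (log2 change -0.26, adjusted p = 0.0458) and Fzd5 (-0.29, adjusted p = 0.0487) lower, against -0.01 and -0.07 with the loess scaling.

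The co-receptors Lrp5 and Lrp6 had 5 higher (17.9%) and 2 lower (7.14%) of 28 regions, beside 12.4% and 11.3% of all regions. Lrp6 held the lowest log2 change of all members: the region at chr6:134502251-134502750, inside the gene, had 0.852 and 1.23 CPM in Notch2_cKO libraries, against 3.19 and 3.25 CPM in controls (log2 change -1.72, SE 0.26, edgeR adjusted p = 8.08e-05). These values rest on few reads, 26 and 16 counts in Notch2_cKO libraries and 73 and 81 counts in controls, but the pairs lay apart. Lrp6 also had a higher region outside the gene (log2 change 1.43), and Lrp5 one inside the gene with 13.4 and 9.88 CPM in Notch2_cKO libraries, against 5.99 and 6.08 CPM in controls (log2 change 0.98). All 3 calls were kept without each library in turn. The higher Lrp6 region was among the lowest 25% of all regions by level.

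**Figure D4:**
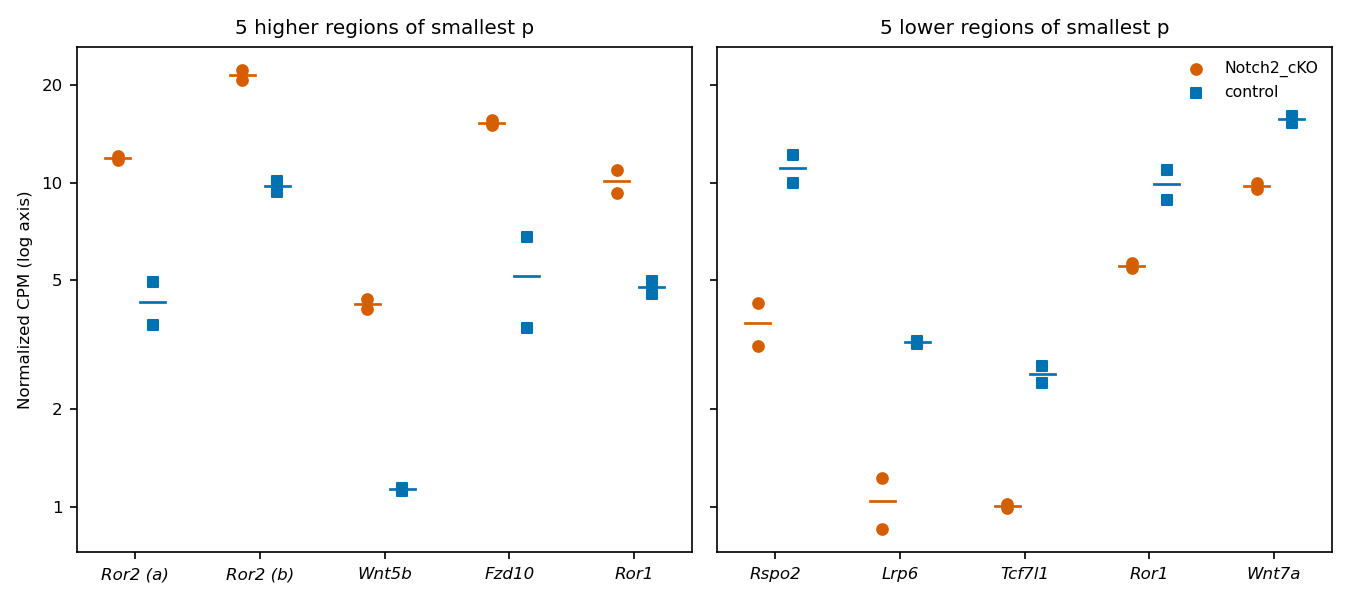
Points give CPM (log axis) in each library at the 5 member regions of smallest p called higher (left panel) and lower (right panel), with orange circles for the 2 Notch2_cKO libraries, blue squares for the 2 controls and a line at each mean. Ror2 (a) is chr13:53261251-53261850 and Ror2 (b) chr13:53217501-53218150. In none of the 10 regions do the groups overlap.

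In the R-spondin arm the R-spondin genes themselves had 2 higher (5.56%) and 8 lower (22.2%) of 36 regions, beside 12.4% and 11.3% of all regions. Of the 8 lower regions, 6 lay at Rspo2. Rspo2 encodes a secreted protein that raises the response to Wnt. All 13 of its regions had a negative log2 change, between -1.64 and -0.18, and both Notch2_cKO libraries lay below both controls at 10 of them. At chr15:43197751-43198350, 26356 bp outside the gene, the values were 3.14 and 4.27 CPM in Notch2_cKO libraries, against 12.2 and 9.98 CPM in controls (log2 change -1.64, SE 0.19, edgeR adjusted p = 3.82e-06). At chr15:43170351-43171000, at the edge of the gene, they were 7.45 and 7.72 CPM in Notch2_cKO libraries, against 13.1 and 11.8 CPM in controls (log2 change -0.72). Both Notch2_cKO libraries were low at both regions. The number of lower Rspo2 regions was 6 without control 2 as well, and 3 under DESeq2. The 6 regions of other genes within 250 kb of Rspo2 had a median log2 change of -0.38, against -0.64 for its own regions, so lower accessibility was not limited to regions assigned to Rspo2.

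Rspo3, another R-spondin, had called regions of both signs. Its region at chr10:29554301-29554950 had 30.5 and 39.2 CPM in Notch2_cKO libraries, against 23.6 and 21.0 CPM in controls (log2 change 0.63), and that at chr10:29555901-29556450 had 7 and 7.87 CPM in Notch2_cKO libraries, against 4.05 and 3.87 CPM in controls (log2 change 0.89). Both lay outside the gene and in both the groups were apart. Within the gene, chr10:29523851-29524400 had 1.43 and 2.61 CPM in Notch2_cKO libraries, against 4.03 and 4.18 CPM in controls (log2 change -1.15), a call lost without Notch2_cKO 1 (-0.64). Rspo1 and Rspo4 had no called region among 4 and 5.

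The R-spondin receptors Lgr4, Lgr5 and Lgr6 had 5 higher (20.8%) and 3 lower (12.5%) of 24 regions, beside 12.4% and 11.3% of all regions. Lgr5, known as a stem cell marker in epithelia, had a higher region with a log2 change of 1.24 that was kept without each library in turn, and 2 lower ones, led by -0.76. Lgr6 had 3 higher regions of 10, led by 0.91. At Lgr4 the lowest-p changes were 0.50 and -0.55, while its start was the most accessible region of all members, with 117 and 127 CPM in Notch2_cKO libraries, against 124 and 120 CPM in controls. These groups overlapped, but edgeR called this start lower with TMM factors (log2 change -0.31, adjusted p = 0.0152) and with median centring (-0.30, adjusted p = 0.0172). The ubiquitin ligase Rnf43 had 1 higher region, near its start, with 7.04 and 7.26 CPM in Notch2_cKO libraries, against 4.50 and 4.11 CPM in controls (log2 change 0.73), and Znrf3 had none called among 8. Without control 2 the higher calls at Lgr4, Lgr6 and Rnf43 were lost (log2 changes of 0.54 to 0.80) and so was the lower one at Lgr4 (-0.53). The higher call at Lgr4 was also lost without control 1 (0.45) or Notch2_cKO 2 (0.37), and that at Lgr6 without Notch2_cKO 1 (0.62). The lower calls of smallest p at Lgr4 and Lgr5 were lost without control 1 (-0.57 and -0.68) or Notch2_cKO 1 (-0.29 and -0.55). DESeq2 lost both calls at Lgr4, the lower one at Lgr5 and the higher one at Lgr6, with adjusted p from 0.0549 to 0.32, and the lower Lgr4 call was also lost with TMM factors and with median centring.

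The nuclear factors had as many higher as lower regions. Tcf7l1, which acts mostly as a repressor of Wnt targets, had 3 higher and 5 lower of 26 regions. Its region at chr6:72699501-72700000, inside the gene, had 1.02 and 0.995 CPM in Notch2_cKO libraries, against 2.73 and 2.42 CPM in controls (log2 change -1.34, SE 0.26, edgeR adjusted p = 0.000927). The groups were apart and the call was kept without each library in turn. The leading higher Tcf7l1 region changed by 1.14, a call lost without control 2 (0.80), and the leading one at Tcf7l2 changed by 1.14 and kept its call. Lef1 had 2 lower regions of 8, the first with a log2 change of -0.72 that was lost without control 1 (-0.69), without Notch2_cKO 1 (-0.58) or under DESeq2 (-0.66), and Tcf7 had none called among 9. The Tcf7l1 start had 55.4 and 52.3 CPM in Notch2_cKO libraries, against 54.5 and 56.6 CPM in controls, which overlapped.

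Axin2, a scaffold of the complex that degrades beta-catenin, is a widely used target gene of beta-catenin signalling and was grouped here with the nuclear factors. It had 4 higher and 1 lower of 17 regions. The higher region of smallest p, chr11:109014701-109015350, lay outside the gene and had 5.48 and 5.54 CPM in Notch2_cKO libraries, against 2.00 and 2.70 CPM in controls (log2 change 1.22, SE 0.20, edgeR adjusted p = 0.000203). The Axin2 start had 24.5 and 18.2 CPM in Notch2_cKO libraries, against 24.3 and 24.2 CPM in controls, and did not pass the test, although without Notch2_cKO 1 it was called lower (log2 change -0.40). The lower Axin2 region changed by -0.63, a call lost without control 2 (-0.61), without Notch2_cKO 1 (-0.45) or under DESeq2 (-0.58).

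Counts were also summed over the regions of each gene. After summing, 13 of the 48 genes were called higher (27.1%), beside 10.4% of all genes with a region, and 1 was called lower (2.08%), beside 8.3% of all genes. Member genes had more regions than other genes, with a median of 7.5 regions against 3. Among genes with at least 5 regions, 10 of 34 member genes were called higher (29.4%), beside 18.5% of all such genes, and 1 was called lower (2.94%), beside 8.55%. Ror2 had 186 and 180 CPM in Notch2_cKO libraries, against 116 and 109 CPM in controls (log2 change 0.71, SE 0.06, edgeR adjusted p = 1.56e-05). Rspo2 had 50.1 and 57.2 CPM in Notch2_cKO libraries, against 79.7 and 77.4 CPM in controls (log2 change -0.56, SE 0.08, edgeR adjusted p = 0.000594). These 2 genes kept their calls under 13 other settings of the fit, which included each library left out, but neither change reaches 2-fold. Over those settings the log2 change ranged from 0.64 to 0.78 at Ror2 and from -0.64 to -0.45 at Rspo2.

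**Figure D5:**
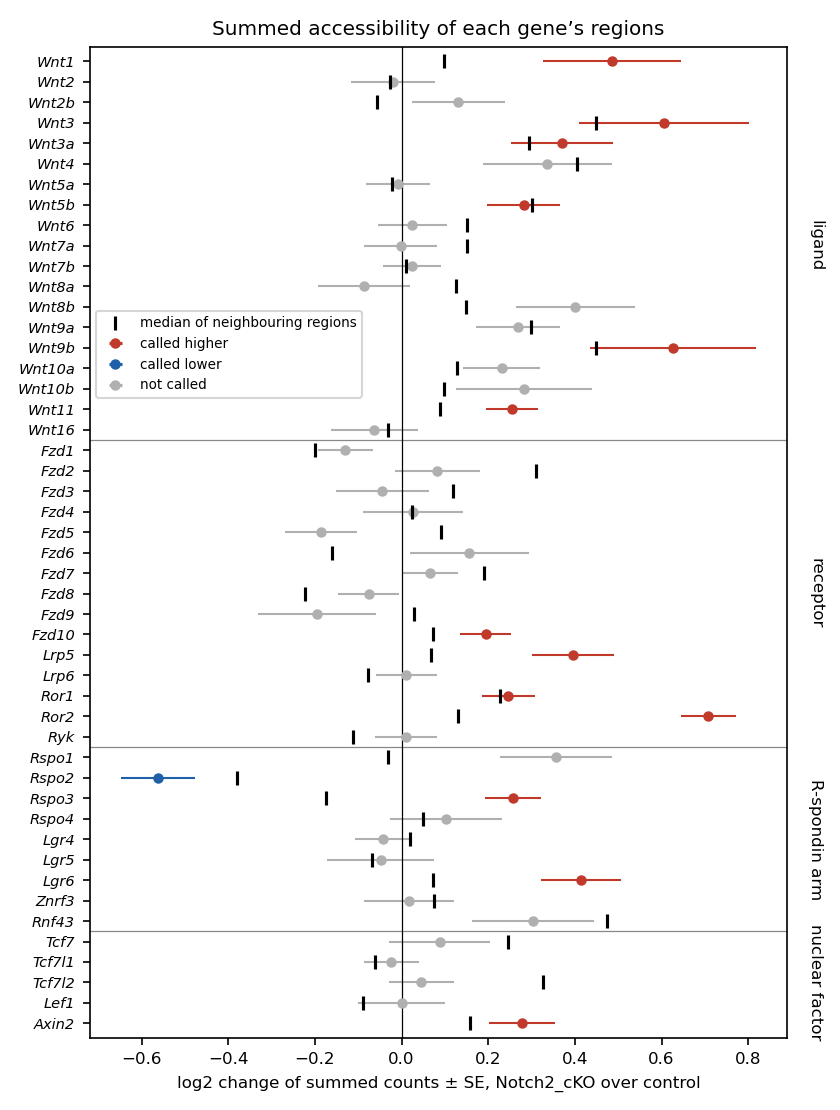
Points give the log2 change of each gene's summed counts, Notch2_cKO over control, with 1 SE from the edgeR fit on either side (horizontal axis), for the 48 genes by role (vertical axis). Red points were called higher (13), the blue one lower (1) and grey points were not called, and black ticks mark the median change of regions of other genes within 250 kb. The ticks are medians of single regions and not summed changes. Ror2 at 0.71 lies farthest to the right and Rspo2 at -0.56 farthest to the left.

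The other 12 genes called higher in the summed table had smaller log2 changes than Ror2. Lgr6 had 58.4 and 51.1 CPM in Notch2_cKO libraries, against 41.8 and 41.0 CPM in controls (log2 change 0.41), and Lrp5 had 48.9 and 43.6 CPM in Notch2_cKO libraries, against 35.0 and 35.8 CPM in controls (0.40). Ror1 had 248 and 250 CPM in Notch2_cKO libraries, against 199 and 220 CPM in controls (0.25), and Fzd10 had 203 and 196 CPM in Notch2_cKO libraries, against 176 and 173 CPM in controls (0.19). In each of these 4 genes both Notch2_cKO libraries were the higher pair. Rspo3 had 133 and 140 CPM in Notch2_cKO libraries, against 114 and 114 CPM in controls (0.26), and Axin2 had 103 and 93.5 CPM in Notch2_cKO libraries, against 77.9 and 84.6 CPM in controls (0.28). Of single regions, only 6 of 14 at Rspo3 and 11 of 22 at Fzd10 had a positive log2 change, with medians of -0.02 and -0.0006. The region medians of the other genes called higher in the summed table were above 0. Among the ligands, Wnt11 had 162 and 158 CPM in Notch2_cKO libraries, against 134 and 134 CPM in controls (0.25), and Wnt5b had 69.2 and 64.7 CPM in Notch2_cKO libraries, against 52.7 and 57.8 CPM in controls (0.28). Wnt3a had 20.3 and 20.3 CPM in Notch2_cKO libraries, against 16.4 and 15.0 CPM in controls (0.37). The other 3 ligands rested on the fewest counts among the called genes. Wnt1 had 7.47 and 6.91 CPM in Notch2_cKO libraries, against 5.16 and 5.20 CPM in controls (0.49), and Wnt9b had 7.04 and 5.87 CPM in Notch2_cKO libraries, against 4.94 and 3.64 CPM in controls (0.63). Wnt3 had 6.02 and 4.41 CPM in Notch2_cKO libraries, against 3.50 and 3.61 CPM in controls (0.60). Without control 1 the higher calls were 3, at Ror2, Lgr6 and Wnt9b, and without control 2 they were also 3, at Ror2, Ror1 and Axin2. Without Notch2_cKO 1 they were 6, with 7 genes losing their call at log2 changes of 0.18 to 0.45, and 2 genes were called lower.

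The smaller of these summed calls also depended on the scaling and on the distance to a gene. With TMM factors or with median centring, 6 of the 12 genes lost their call: Axin2, Fzd10, Ror1, Rspo3, Wnt5b and Wnt11. Their log2 changes were then 0.14 to 0.25, with edgeR adjusted p from 0.0534 to 0.218, and under DESeq2 4 genes were higher, Ror2, Lgr6, Lrp5 and Wnt3a, and 1 lower. When only regions within 10 kb of a gene were summed, Rspo3 changed by 0.04 (edgeR adjusted p = 0.72), Axin2 by 0.05 (adjusted p = 0.76) and Fzd10 by -0.02 (adjusted p = 0.879). Wnt1 (0.47), Wnt3 (0.58) and Wnt11 (0.21) were not called within 10 kb either, with adjusted p from 0.0521 to 0.156. Lgr6 and Lrp5 kept their calls within 10 kb and under TMM factors, median centring and DESeq2.

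Of the 48 genes, 9 lie on chromosome 11, where 20% of all regions were called higher and 5.72% lower. The members there had 9 higher and 2 lower of 63 regions, with a median log2 change of 0.29. The members on other chromosomes had 62 higher (15.9%) and 36 lower (9.21%) of 391 regions, beside 12% and 11.6% of all regions outside chromosome 11. Of the 13 genes called higher in the summed table, Wnt3, Wnt3a, Wnt9b and Axin2 are on chromosome 11. The regions of other genes within 250 kb of them had median log2 changes of 0.45, 0.29, 0.45 and 0.16. On other chromosomes the same median was 0.30 at Wnt5b and 0.23 at Ror1, against medians of 0.24 and 0.10 for the genes' own regions. Their summed changes, 0.28 and 0.25, come from a separate fit of summed counts and are not the same measure. The median of neighbouring regions was 0.10 at Wnt1, 0.09 at Wnt11, 0.07 at Fzd10, Lrp5 and Lgr6, and -0.17 at Rspo3.

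Member regions within 1000 bp of a RefSeq start numbered 30 at 26 genes, among the 34 genes with a start in the RefSeq promoter table. Of these 30, 4 were called higher, at Wnt5b, Rnf43, Ror2 and Wnt1, beside 5.05% of all start regions, and 0 were called lower, beside 3.72%. At an unadjusted edgeR p under 0.05, 1 of the 30 was lower, at Ryk, and DESeq2 called 0 of them lower. The count of lower starts depended on the scaling. With TMM factors 4 were higher and 3 lower, at Lgr4, Fzd1 and Fzd5, beside 4.4% and 13.4% of all start regions. With median centring 4 were higher and 1 lower, at Lgr4, beside 4.49% and 12.5% of all start regions. The Ryk start was called lower by limma-trend (-0.48) and with the replicate block (-0.46). Without control 2 only the Wnt5b start was called, without control 1 there were 3 higher starts, and without Notch2_cKO 2 there were 9. Without Notch2_cKO 1 there were 2 higher and 2 lower, the lower ones at Axin2 and Ryk. The 15 starts not named so far changed by log2 0.59 at Wnt4, 0.43 at Wnt16, 0.28 at Wnt2, 0.22 at Wnt9a, 0.17 at Wnt2b, 0.14 at Wnt6, and 0.28 and -0.06 at Wnt11. Among receptors and the R-spondin arm these values were -0.41 at Ryk, 0.37 at Rspo1 and 0.28 at Lgr6, and among nuclear factors 0.17 at Lef1, 0.01 at Tcf7, and -0.11 and 0.17 at Tcf7l2. None of the 15 passed the test with all libraries and the loess scaling. Of regions not placed at a start, 32 higher (14.9%) and 21 lower (9.77%) calls fell among 215 inside genes, beside 13.3% and 11.5% of all such regions. Outside genes there were 35 higher (16.7%) and 17 lower (8.13%) among 209, beside 12.9% and 10.8% of all such regions. These 2 groups also hold every region of the 14 genes with no start in that table, Rspo2 among them, so some may lie at a start. A distance to a start was known for 157 of the 215 regions and 153 of the 209. Promoter windows from RefSeq (build GRCm38.p6) run from 250 bases before the start to 50 after it. They are given here for the 3 called starts whose region overlaps the window by more than 100 bases. The region covers all 300 bases of the window at Ror2 and Wnt1, and 161 bases at Wnt5b. The Rnf43 window shared 14 bases with its region and is not shown. Capitals mark the 2 motif matches found. Wnt5b lies on the minus strand at chr6:119467162-119467461, Ror2 on the minus strand at chr13:53286075-53286374 and Wnt1 on the plus strand at chr15:98789607-98789906.
Wnt5b: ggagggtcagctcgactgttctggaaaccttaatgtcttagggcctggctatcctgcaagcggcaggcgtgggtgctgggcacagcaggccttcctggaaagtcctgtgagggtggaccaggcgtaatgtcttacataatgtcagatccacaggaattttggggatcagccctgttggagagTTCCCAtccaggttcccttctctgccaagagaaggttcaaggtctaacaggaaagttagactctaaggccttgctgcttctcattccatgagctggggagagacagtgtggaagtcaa
Ror2: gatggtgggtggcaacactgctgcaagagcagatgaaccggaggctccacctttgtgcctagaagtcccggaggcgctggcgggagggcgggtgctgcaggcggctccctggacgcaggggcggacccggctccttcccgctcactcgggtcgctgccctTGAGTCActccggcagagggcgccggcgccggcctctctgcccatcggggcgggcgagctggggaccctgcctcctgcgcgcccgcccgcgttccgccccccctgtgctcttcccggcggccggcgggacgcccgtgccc
Wnt1: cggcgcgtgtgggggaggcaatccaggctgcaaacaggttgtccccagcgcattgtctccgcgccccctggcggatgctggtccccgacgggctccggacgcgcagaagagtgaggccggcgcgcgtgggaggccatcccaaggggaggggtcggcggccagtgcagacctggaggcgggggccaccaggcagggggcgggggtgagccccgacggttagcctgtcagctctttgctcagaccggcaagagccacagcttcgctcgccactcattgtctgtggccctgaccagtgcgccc

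The Wnt5b window had 53.0% G and C and 4 CpG dinucleotides, while the Ror2 window had 74.7% and 32, and the Wnt1 window 70.7% and 26. On both strands 3 motifs were searched: CTTTGA, the core that TCF and LEF factors bind, TGGGAA, the core that RBPJ binds as the DNA-binding partner of Notch, and TGANTCA, the AP-1 motif. The Wnt5b window held 1 match to TGGGAA on its opposite strand, read as TTCCCA, which lay in the part outside the called region. The Ror2 window held 1 match to TGANTCA, read as TGAGTCA, inside the called region. The Wnt1 and Rnf43 windows held no match. Over the promoter windows of the RefSeq table, CTTTGA occurred in 16.0%, TGGGAA in 25.6% and TGANTCA in 7.81% of 32851 windows. In the 43 windows of member genes they occurred in 5 (11.6%), 8 (18.6%) and 2 (4.65%). A match of letters is a description and not a bound site.

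The rest of the pathway, 62 further genes listed by role, was read in the same fit. Of these, 61 had a region, and 79 of their 494 regions were called higher (16.0%) and 42 lower (8.5%), beside 12.4% and 11.3% of all regions. Genes grouped as secreted antagonists, most of which bind Wnts or their co-receptors, had 23 higher (24.5%) and 3 lower (3.19%) of 94 regions. Their lowest-p region, 30068 bp from Sfrp1, a Frizzled-related protein that binds Wnts, had 11.3 and 11.5 CPM in Notch2_cKO libraries, against 0.578 and 0.395 CPM in controls (log2 change 4.55, SE 0.24, edgeR adjusted p = 7.12e-10). The control values there rest on 13 and 10 counts. Sfrp1 alone held 12 of the 23 higher regions of this group, among its own 22 regions. A region of Wif1, another Wnt-binding inhibitor, was lower (-1.01).

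Planar polarity genes had 26 higher (19.4%) and 11 lower (8.21%) of 134 regions, led by Prickle2 (log2 change 2.44) and Celsr2 (-1.21). Over all regions the shares were 12.4% and 11.3%. Signal transduction genes had 5 higher (6.02%) and 9 lower (10.8%) of 83 regions. They were led by Gsk3b (2.09), the kinase that marks beta-catenin for degradation, and Tnks (-0.91), which promotes turnover of Axin. The group listed as beta-catenin cofactors had 12 higher and 12 lower of 93 (12.9% each), led by Tle4 (2.03) and Tle3 (-1.40). It also holds Ctnnbip1 and the Tle corepressors, so its counts are not those of coactivators alone. At Tle3 5 of 27 regions were higher and 7 lower. Feedback targets had 12 higher (14.5%) and 7 lower (8.43%) of 83, led by the Wnt inhibitors Apcdd1 (1.86) and Nkd1 (-1.11). The secretion genes had 1 higher region of 7, at Wls (0.86), the protein that carries Wnts to the cell surface. At the Gsk3b region the values were 7.32 and 7.85 CPM in Notch2_cKO libraries, against 2.18 and 1.39 CPM in controls, and at the Tle4 region they were 22.7 and 22.3 CPM in Notch2_cKO libraries, against 4.94 and 6.06 CPM in controls. The groups were far apart at both.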

How the data were processed

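ATAC-seq libraries of sorted lymph node fibroblastic reticular cells from 2 genotypes, with 2 pools each, were used. The submitters' processing notes name build mm10, Bowtie2 2.4.5, Picard 2.27.5, SAMtools 1.14, Trim Galore 0.6.7, deepTools and cutadapt. For the peak caller, window filter, read shift for the transposase and csaw version, the sources used here give nothing.

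As deposited, the table has whole-number counts for 678058 overlapping windows, each 300 bp wide and 50 bp from the next. The labels describe them as loess-normalized in csaw, but column sums differed up to 2.44 times, so they were treated as counts. Merging windows with gaps of at most 100 bp gave 110110 regions, each represented by the window with the highest summed counts, and 95449 regions received a gene within 100 kb from the RefSeq table (GRCm38.p6, the assembly of mm10). No filter on level was applied beyond that of the table. Which gene a region acts on cannot be read from distance.

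Loess offsets (limma 3.58.1 loessFit, span 0.3) entered edgeR 4.0.16 (glmQLFit and glmQLFTest, R 4.3.3) with genotype as the only term. The Benjamini-Hochberg adjustment ran over all regions, with a threshold of 0.05. The SE is the log2 change divided by the square root of the F statistic. CPM are counts divided by the offset library size. For summed values, counts over all regions of a gene were fitted in the same way over 17672 genes. The scripts were tested on simulated data. DESeq2 1.42.0 and limma were alternatives, and Python 3.11.15 with pandas and matplotlib drew the figures. For single values, an exact permutation test of 2 against 2 libraries cannot give a two-sided p under 0.333, so none is printed. The edgeR p-values set the difference between genotypes against the spread between pools, which the fit moderates across regions or genes. They do not measure the spread between mice.

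Replicates were compared by a chi-square per region, which averaged 2.80 between Notch2_cKO libraries and 1.98 between controls, so no pair was counted as 1 library. The members, gene lists and rules for naming genes were chosen with earlier results of these data known. Named were each member gene's called region of smallest p per direction, starts, the most accessible region of each class and genes called in the summed table, and for other pathway genes the called region of smallest p per direction and group. Markers without a region, among them Ccl19 and Ccl21a, were not analysed here. Promoter sequences are from RefSeq and matched 34 of the 48 genes, so 14 genes have no start here. Sequence under regions away from starts was not used here.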

Additional observations from a re-analysis of the deposited data

How the results depend on the processing

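With 2 libraries a group, counts depended on the test and on single libraries. Of the 71 higher and 38 lower member regions, 27 and 12 kept their calls without each library in turn, 26 and 8 in all 9 refits of the same regions, and 0 were called in the opposite direction. Leaving out 1 library assumes that the lone one left in its group varies as the other group does. The cause of the changes below was not tested.

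Pairs below give higher and then lower calls. Over all regions, DESeq2 gave 7381 and 5470, adjusted p under 0.01 gave 8495 and 7079, a further 2-fold threshold 6042 and 4861, and libraries left out 8856 to 15579 and 8035 to 14677. For member regions these were 40 and 10, 42 and 18, 27 and 8, and 39 to 81 and 23 to 39, with 41 and 23 when genes were taken within 10 kb. At receptors DESeq2 gave 23 and 3, p under 0.01 23 and 7, 2-fold 16 and 2, 10 kb 22 and 7, and libraries left out 24 to 36 and 8 to 17. At ligands DESeq2 gave 6 and 2, p under 0.01 7 and 3, 2-fold 6 and 2, libraries left out 5 to 24 and 4 to 9, and 10 kb 10 higher. In the R-spondin arm DESeq2 gave 4 and 4, p under 0.01 5 and 6, 2-fold 1 and 3, 10 kb 5 and 6, and libraries left out 3 to 10 and 7 to 11. At nuclear factors 2-fold gave 4 and 1, 10 kb 4 and 5, libraries left out 6 to 11 and 3 to 7, and DESeq2 1 and p under 0.01 2 lower. Summed genes called higher were 4 with DESeq2, 8 within 10 kb, 2 at p under 0.01, 0 at 2-fold and 3 to 19 with libraries left out, and lower ones 0 at 2-fold and 1 to 2 with libraries left out.

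The replicate block gave 65 higher and 34 lower member regions and 8 higher summed genes. The numbers were not shown to pair libraries (correlation of deviations -0.18), and the crossed pairing, chosen after seeing the data, gave 91 and 53. Leaving out members on chromosome 11, also chosen after seeing the data, gave 62 and 36.

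At starts of high level the scaling changed calls. With TMM factors the starts of Lgr4 (-0.31), Fzd5 (-0.29) and Fzd1 (-0.26) were called lower by edgeR, and with median centring that of Lgr4 (-0.30), although with the loess scaling the 3 were at 0.00, -0.07 and -0.01. The share of all start regions called lower was 13.4% with TMM factors and 12.5% with median centring, against 3.72% with the loess scaling. Of the 13 genes higher when summed, 6 lost their call under either of these scalings.

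Sign changes occurred at log2 changes near 0. With single libraries left out, the values were -0.0659 to 0.0572 at the Lgr4 start, -0.103 to 0.0789 at the Wnt7b region of highest level, -0.0461 to 0.0102 at the Fzd1 start and -0.0833 to 0.00227 at the Tcf7l1 start. With the lowest 25% left out, the Lgr4 start was at 0.0117 and the Wnt7b region at 0.0031. With the middle window, the Fzd1 start was at 0.0136 and the Lgr4 start at 0.0033, which limma put at 3.2e-05. Summed Fzd10 was at -0.0246 within 10 kb. The median log2 change of all regions stayed within 0.01 of 0 under each scaling, although the starts above moved further.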
